A study of Arabidopsis thaliana with 48 samples.

Results

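Late embryogenesis abundant (LEA) proteins were followed at the RNA level in rosette leaves of Arabidopsis thaliana through 10 genes, out of 27655 in the deposited gene tables. The 10 were taken by gene identifier, as LEA genes other than dehydrins, with no threshold on a measured value, although earlier results of these data were known when they were chosen. They are LEA7 (AT1G52690), AT3G17520, AT2G42560, AT3G02480 and ECP63 (AT2G36640) of the LEA_4 family, LEA4-5 (AT5G06760) and LEA18 (AT2G35300) of the LEA_1 family, EM1 (AT3G51810) and GEA6 (AT2G40170, also called EM6) of the Em family, and LEA14 (AT1G01470) of the LEA_2 family. LEA proteins accumulate in maturing seeds as these dry, and again in leaves and roots that lose water, largely under the control of abscisic acid (ABA). Most are very hydrophilic and have little fixed structure in solution, take up helical structure on drying, and protect enzymes and membranes from damage. LEA14 is an exception, since it is a folded protein of a less hydrophilic family.

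The series compared Col-0 wild type (WT) with a Col-0 line that is mutant for MTA and carries MTA under the ABI3 promoter instead, MTA being the methyltransferase that writes N6-methyladenosine (m6A) into mRNA (proABI3:MTA/mta, called mta here). The ABI3 promoter is active in the embryo, so the line is a mutant for MTA after embryogenesis only. Plants were 17 days old, after 8 days in short photoperiod and 9 days in a 12-hour photoperiod, when watering was stopped in one set for 12 days and continued in the other. The 4 groups were thus watered WT, droughted WT, watered mta and droughted mta. Each group had 3 libraries in each of 4 assays, 48 libraries in all. The assays were mRNA (the input kept back from the m6A immunoprecipitation), the immunoprecipitation itself, RNA from polysomes, and GMUCT, which reads RNA with a free 5′ phosphate, here called uncapped RNA. Whether the 3 libraries per group derive from separate plants is not given in the sources used here, and p-values measure the spread between these libraries, which may be technical.

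Gene counts summed to 1504013 to 5503037 per mRNA library, 35833742 to 43032763 per polysomal library and 1313457 to 12421168 per GMUCT library. Plastid genes took 11.7% of the counts in watered WT mRNA replicate 3, which had the fewest counts of the mRNA libraries, against 1.93% to 4.36% in the others. MTA mRNA, which checks the line, differed between mta and WT by -1.16 ± 0.19 on the log2 scale (SE) in watered leaves. In droughted leaves it differed by -1.28 ± 0.18. Some reads over the MTA gene thus remained in mta, and whether they came from whole transcripts was not tested. All 6 leaf mesophyll markers were present in every group. Of 14 seed storage and oil body markers 9 or 10 had 0 mRNA counts in every group, and their summed level lay between 0.799 and 5.60 CPM (counts relative to the TMM-scaled library total).

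On the TAIR10 assembly LEA7 lies at chromosome 1, 19619724 to 19621534 (plus strand), and LEA14 at chromosome 1, 171525 to 172948 (minus). AT3G17520 lies at chromosome 3, 5999174 to 6000447 (minus), AT3G02480 at chromosome 3, 512220 to 513036 (plus), and LEA4-5 at chromosome 5, 2089445 to 2090430 (minus). GEA6 and ECP63 lie on chromosome 2 at 16779552 to 16780368 and 15356830 to 15358619 (both minus). Each span is the whole annotated gene, over which the authors counted reads.

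In the mRNA of watered WT leaves 9 of the 10 LEA genes were near the limit of detection, and LEA14 alone was at a substantial level. Per kilobase of gene length LEA14 stood at 97.5 CPM there, and no other member exceeded LEA4-5 at 1.45. In droughted WT leaves LEA7 led with 3558 ± 123 CPM per kilobase (SD, n = 3), followed by AT3G02480 with 1539 ± 85.9. LEA4-5, AT3G17520 and LEA14 came next with 1367, 1291 and 1273 CPM per kilobase, and neighbours among these 3 did not differ beyond the range of their libraries. Then came AT2G42560 with 547, LEA18 with 214 and EM1 with 22.3 CPM per kilobase, each set apart from its neighbours. ECP63 and GEA6 were lowest with 2.31 and 1.97, with overlapping libraries. Levels between genes are compared per kilobase because the counted spans, introns included, run from 634 bases for LEA18 to 2275 bases for AT2G42560. The 10 genes together took 0.0144% of all mRNA counts in watered WT and 1.35 ± 0.0442% in droughted WT. LEA7 alone held 0.624% there, which made it the fifth most counted gene of the leaf (rank 5), and 6 of the 10 members were among the 100 most counted genes. In droughted mta the share of the 10 genes was 0.766 ± 0.0495%, LEA7 ranked 13 and 3 members were among the top 100.

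**Figure D1:**
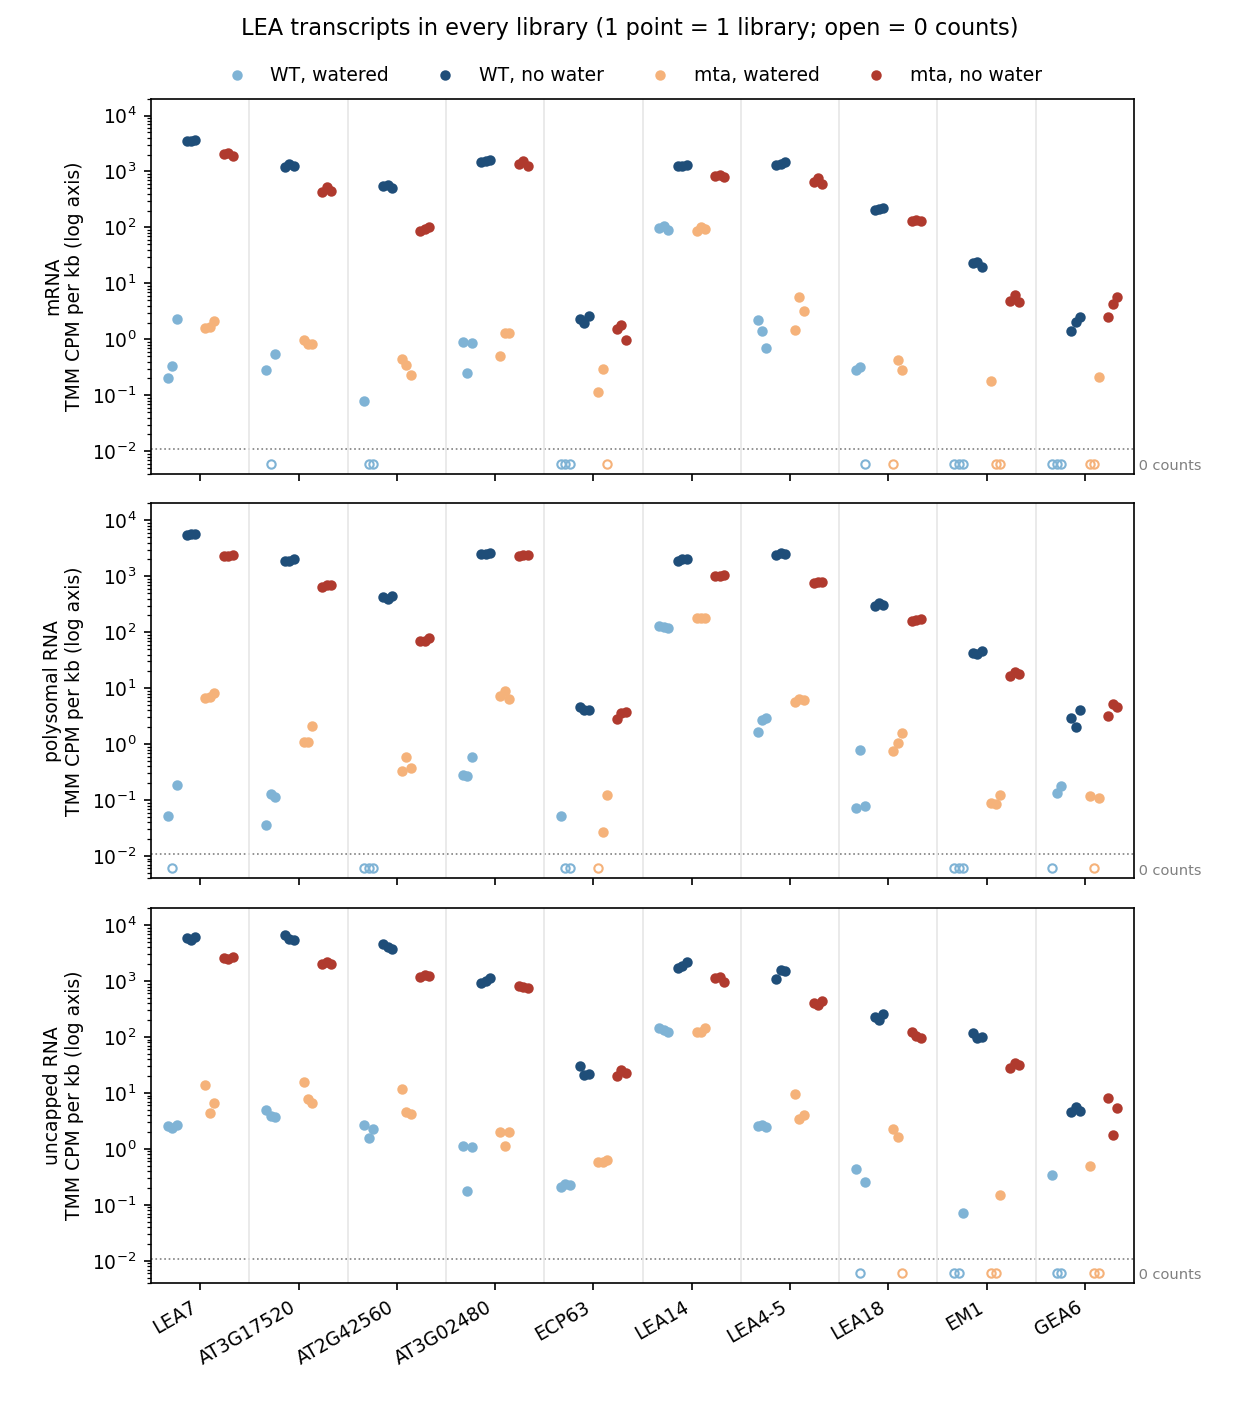
Level of each of the 10 LEA genes in every library, as TMM-scaled CPM per kilobase of gene length on a log axis, in mRNA, polysomal RNA and uncapped RNA. Colours mark the 4 groups, and open symbols are libraries with 0 counts. In each panel the droughted libraries of every gene lie above the watered ones, and LEA14 has the highest watered level.

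LEA transcripts were higher in droughted than in watered WT leaves, by 3.70 on the log2 scale for LEA14 and by 9.63 or more for LEA7, AT3G02480 and LEA4-5. All 9 members that passed the filter on low counts rose (edgeR quasi-likelihood F test, Benjamini-Hochberg adjusted p under 0.05), where 32.6% of the 17666 genes tested rose. GEA6 did not pass that filter, and every tested member except LEA14 and LEA7 passed it through its droughted libraries, so the count of 9 is a description and not evidence about the family. In bulk leaf tissue, more cells that hold a transcript and more transcript per cell cannot be told apart. The summed level of the 6 mesophyll markers was 33830 to 37083 CPM in watered WT and 7147 to 7262 CPM in droughted WT, and its part in the rise was not tested.

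Within the LEA_4 family LEA7, whose protein is a hydrophilic helix-forming LEA protein of the seed and of stressed tissue, stood at 0.362, 0.607 and 4.20 CPM in the watered WT mRNA libraries and at 6244, 6401 and 6683 CPM in the droughted ones. The rise was 12.69 ± 0.41 on the log2 scale (adjusted p = 2.5e-20). It read 12.08 without watered WT replicate 1 and 13.67 without replicate 3, the library with the highest watered value. AT3G17520 had 0.362, 0 and 0.700 CPM in watered WT and 1551, 1768 and 1615 CPM in drought, a ratio of 6494 with a 95% counting interval of 2222 to 31493.5 on 3 watered counts. For AT2G42560 the watered libraries held 0.181, 0 and 0 CPM and the droughted ones 1239, 1328 and 1168 CPM. Its ratio of 14752 rested on 1 watered count, with an interval of 2647 to 582701. AT3G02480, a short member of the family, rose from 0.723, 0.202 and 0.700 CPM to 1197, 1240.1 and 1334 CPM, by 11.20 ± 0.45 on the log2 scale (adjusted p = 4.68e-21), or 11.83 without watered WT replicate 1. ECP63, named for an embryogenic cell protein, was at 0 in watered WT and at 4.10, 3.57 and 4.74 CPM in drought, at least 16.5-fold higher when 3 counts over the group are taken as the limit of a count of 0. In each of these genes every droughted library lay above every watered one, as in 34.5% of the genes tested. These intervals and limits cover counting error only.

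In the LEA_1 family LEA4-5, which is needed for full tolerance of water deficit in Arabidopsis, stood at 2.17, 1.42 and 0.700 CPM in watered WT mRNA and at 1267, 1337 and 1440.0 CPM in drought. That was a rise of 9.63 ± 0.35 on the log2 scale (adjusted p = 5.91e-19). LEA18 had 0.181, 0.202 and 0 CPM in watered WT and 131, 136 and 141 CPM in drought, a ratio of 809 on 2 watered counts with an interval of 224 to 6683. Both genes were thus almost undetected in watered leaves, and per kilobase LEA18 stayed well below LEA4-5 in drought (214 against 1367 CPM).

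The Em genes, whose products are abundant in dry seeds, stayed low in leaves. EM1 was at 0 in all 3 watered WT libraries and at 25.3, 27.2 and 21.9 CPM in drought, at least 97.7-fold higher. GEA6 was at 0 in watered WT and at 1.14, 1.65 and 2.03 CPM in drought, on 20 counts over the group and at least 6.36-fold higher. LEA14 started from the highest level and had the smallest rise among the tested members. It stood at 140.5, 149.8 and 126 CPM in watered WT and at 1795, 1793 and 1849 CPM in drought, 3.70 ± 0.09 higher on the log2 scale (adjusted p = 1.24e-18). In the order of all 17666 log2 fold changes AT2G42560, LEA7 and AT3G17520 held ranks 1, 2 and 3, AT3G02480 rank 10 and LEA14 rank 293. Ranks of genes with almost no watered counts depend on the prior count of the fit.

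In mta leaves the LEA transcripts were also higher in drought than with water. Again 9 of 9 tested members rose, where 35.1% of all genes tested did, and the droughted libraries of all 9 lay above the watered ones, as in 36.1% of the genes. The filter was the same as for WT, so these counts too are a description and not evidence about the family. LEA7 stood at 2.84, 2.95 and 3.88 CPM in watered mta and at 3718, 3861 and 3496 CPM in drought, a rise of 10.13 ± 0.23 on the log2 scale (adjusted p = 9.64e-20). Of the 6 members with more than 3 counts in watered mta, AT3G02480 had the largest rise, 10.35 ± 0.32, followed by LEA7, AT3G17520 with 9.02 ± 0.29 and AT2G42560 with 8.07 ± 0.33. LEA4-5 rose by 7.65 ± 0.25 and LEA14 by 3.15 ± 0.09. The other 4 had only 1 to 3 watered counts and are not placed in this order, with ratios of 596 for LEA18 (interval 164 to 4927), 82.6 for EM1 (14.3 to 3309.8), 48.6 for GEA6 (8.23 to 1966) and 12.1 for ECP63 (3.78 to 62.2). The mesophyll markers summed to 44176 to 48989 CPM in watered mta and 11229 to 12241 CPM in droughted mta, and their part in the rise was not tested. The drought effects in the 2 genotypes have no library in common, but each shares its droughted or watered libraries with the genotype comparisons that follow.

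Between the genotypes, 7 of the 9 tested LEA transcripts were lower in droughted mta than in droughted WT and none was higher. Of all genes tested 26.1% were lower and 26.6% were higher. The median log2 difference of the 9 was -0.80, against 0.01 over all genes tested. The difference was unequal among them, with AT2G42560 at 17.3% of its WT level and AT3G02480 at 90.1%. AT2G42560 had 196, 215 and 234 CPM in droughted mta against 1239, 1328 and 1168 CPM in droughted WT, a log2 difference of -2.53 ± 0.10 (adjusted p = 6.39e-15). EM1 followed, with 5.31, 6.93 and 5.14 CPM against 25.3, 27.2 and 21.9 CPM and a difference of -2.09 ± 0.23 (adjusted p = 7.64e-08). For both genes the 2 groups of libraries were far apart. AT3G17520 differed by -1.47 ± 0.10 (552, 663 and 569 CPM in mta) and LEA4-5 by -1.04 ± 0.14 (631, 746 and 587 CPM in mta), again with no overlap.

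Smaller differences were found for LEA7, LEA18 and LEA14. LEA7 differed by -0.80 ± 0.13 (adjusted p = 3.29e-05), LEA18, with 81.4, 86.9 and 81.5 CPM in mta, by -0.71 ± 0.10, and LEA14, with 1181, 1249 and 1127 CPM, by -0.61 ± 0.09. ECP63, on 52 counts in WT and 30 in mta, had a log2 difference of -0.70 ± 0.39 that missed the threshold (adjusted p = 0.127), although its mta values of 2.78, 3.20 and 1.71 CPM all lay below the WT values. AT3G02480 had 1127, 1244 and 1026 CPM in mta and overlapped with WT, with a difference of -0.15 ± 0.10 (adjusted p = 0.219). With the trend of log2 fold change over gene length removed, both passed the threshold, ECP63 at -0.97 (adjusted p = 0.0360) and AT3G02480 at -0.85 (adjusted p = 1.96e-08), and the short genes LEA4-5 and LEA18 moved to -1.65 and -1.46. GEA6 was not tested, and its 2.02, 3.46 and 4.65 CPM in mta overlapped with the WT values. In 8 of the 9 tested members all droughted mta libraries lay below all droughted WT libraries, which held for 30.2% of the genes tested. ECP63, among these 8, held 13 to 21 counts per library in droughted WT and 7 to 12 in droughted mta. It thus passed the filter on low counts through droughted WT, whereas GEA6, at 210% of its WT mean, did not pass. The counts of members in this comparison are therefore a description and not evidence about the family. Over the same libraries the mesophyll markers summed to 7147 to 7262 CPM in WT and 11229 to 12241 CPM in mta, and the part of that difference in the LEA values was not tested.

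**Figure D2:**
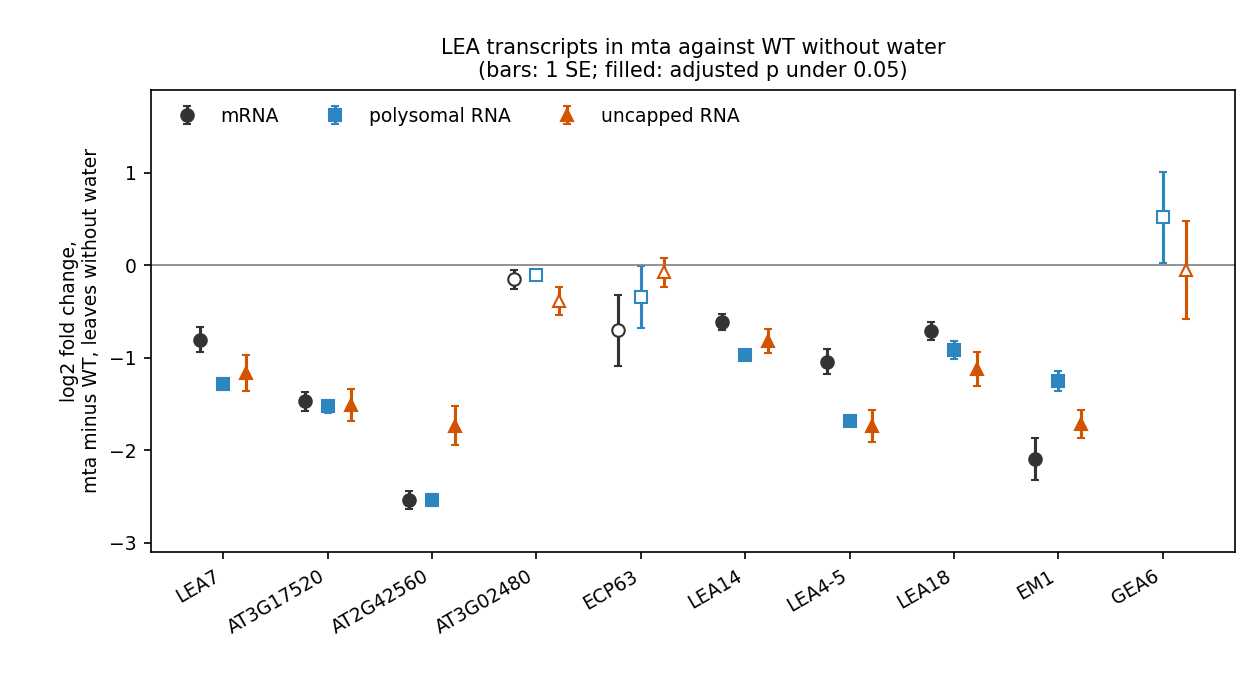
Log2 fold change of droughted mta against droughted WT for the 10 LEA genes in mRNA, polysomal RNA and uncapped RNA, with the SE of the fit as bars. Filled symbols have an adjusted p under 0.05. AT2G42560 is the lowest in mRNA at -2.53, while AT3G02480 lies near 0 in mRNA and polysomal RNA.

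In watered leaves the order of the genotypes was the opposite for several LEA_4 genes, at levels of a few CPM. In mRNA 3 of the 9 tested members were higher in watered mta than in watered WT, where 8.50% of the genes tested were higher. LEA7 was higher by 1.75 ± 0.45 on the log2 scale (adjusted p = 0.00414), but its WT values of 0.362, 0.607 and 4.20 CPM overlapped with the 2.84, 2.95 and 3.88 CPM of mta. The difference was 1.15 and missed the threshold without watered WT replicate 1 (adjusted p = 0.0838), and was 2.74 without replicate 3. AT3G17520 stood at 1.22, 1.07 and 1.06 CPM in mta, above all 3 WT libraries, a ratio of 4.43 with an interval of 1.27 to 23.7 on 16 counts against 3. AT2G42560 stood at 1.02, 0.805 and 0.529 CPM in mta, also above all WT libraries, a ratio of 9.14 with an interval of 1.33 to 393 on 11 counts against 1. The calls of AT3G17520 and AT2G42560 were lost with DESeq2 (adjusted p of 0.093 and 0.102). Both were also lost when single libraries were left out, for AT3G17520 with any watered library but WT replicate 3 (adjusted p up to 0.284) and for AT2G42560 with watered WT replicate 2 or watered mta replicate 1 (0.179 and 0.0936). Non-overlapping libraries with mta above WT were found in 2 of the 9 members, against 15.6% of the genes tested. The other 6 tested members had adjusted p between 0.106 and 0.929.

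The polysomal libraries were deeper and hold another RNA fraction, so their values are not the mRNA comparison at greater depth. There 8 of 10 members were higher in watered mta, where 19.1% of the 20439 genes tested were higher. LEA7 stood at 0.0924, 0 and 0.342 CPM in watered WT and at 12.3, 12.8 and 14.7 CPM in watered mta, 6.45 ± 0.37 higher on the log2 scale (adjusted p = 3.66e-19) and 7.96 higher without watered WT replicate 3. AT3G02480 stood at 0.231, 0.219 and 0.488 CPM against 5.83, 7.14 and 5.13 CPM, a difference of 4.25 ± 0.23. AT3G17520 was higher by 3.95 ± 0.46, and AT2G42560, at 0 in all 3 WT libraries and at 0.754, 1.32 and 0.855 CPM in mta, was at least 19.5-fold higher. The polysomal RNA of all 4 of these LEA_4 genes thus showed no overlap between the genotypes. LEA18 was higher by 1.96 ± 0.49, with 0.0462, 0.493 and 0.0488 CPM in WT and 0.486, 0.662 and 0.990 CPM in mta. This value was 3.83 without watered WT replicate 2, the only library of WT that overlapped with mta. LEA4-5 was higher by 1.32 ± 0.11, LEA14 by 0.55 ± 0.04 and EM1 at least 2.20-fold on 7 counts. GEA6 and ECP63 missed the threshold (adjusted p = 0.778 and 0.279). Libraries did not overlap, with mta above WT, in 7 of 10 members, against 24.7% of the genes tested.

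In the uncapped RNA of watered leaves 6 of 10 members were higher in mta, where 12.1% of the 18479 genes tested were higher. LEA7 had 4.72, 4.32 and 4.85 CPM in watered WT and 25.0, 8.04 and 12.0 CPM in watered mta, 1.62 ± 0.27 higher (adjusted p = 7.48e-05). AT2G42560 was higher by 1.60 ± 0.28 and AT3G17520 by 1.22 ± 0.24, with no overlap between the groups. In mta replicate 1 stood highest for LEA7, AT3G17520, AT2G42560 and LEA4-5. LEA4-5 was higher by 1.01 ± 0.29 and lost its call without that library (adjusted p = 0.178). LEA18, higher by 2.46 ± 0.89, and ECP63, higher by 1.37 ± 0.45, lost theirs when other single libraries were left out, with adjusted p of up to 0.142 and 0.0787. LEA18 read 3.13 without watered WT replicate 1 and 1.83 without replicate 2. All mta libraries lay above all WT libraries in 6 members, against 19.9% of the genes tested, the exceptions being LEA14, LEA18, GEA6 and EM1. The 14 seed storage and oil body markers summed to 2.03 to 3.00 CPM in watered mta mRNA, with 10 at 0, below the 4.34 to 5.60 CPM of watered WT. In polysomal RNA their order was the opposite, with 2.60 to 4.55 CPM in watered mta and 1.27 to 2.52 CPM in watered WT, with 9 at 0 in both. Flower and meristem markers summed to 35.6 to 38.5 CPM in watered WT mRNA and 11.6 to 14.98 CPM in watered mta, with all 7 detected in both groups, and mesophyll markers to 33830 to 37083 and 44176 to 48989 CPM. In polysomal RNA the mesophyll markers were lower in watered mta, at 29945 to 32255 CPM against 41087 to 42637 CPM in WT. Of the 6 markers 5 were called lower there, where 21.0% of the 20439 genes tested were lower. The summed level of the 5 root markers was higher in watered mta in both assays, but 1 or 2 were at 0 and only 2 or 3 reached 10 counts. The sums were 224 to 247 against 165 to 177 CPM in mRNA and 195 to 213 against 99.9 to 107 CPM in polysomal RNA. PYK10 had the most counts of the 5, with 2802 in watered mta against 1590 in watered WT in mRNA. In polysomal RNA it had 23192 against 9842. The part of these differences in the LEA values was not tested.

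**Figure D3:**
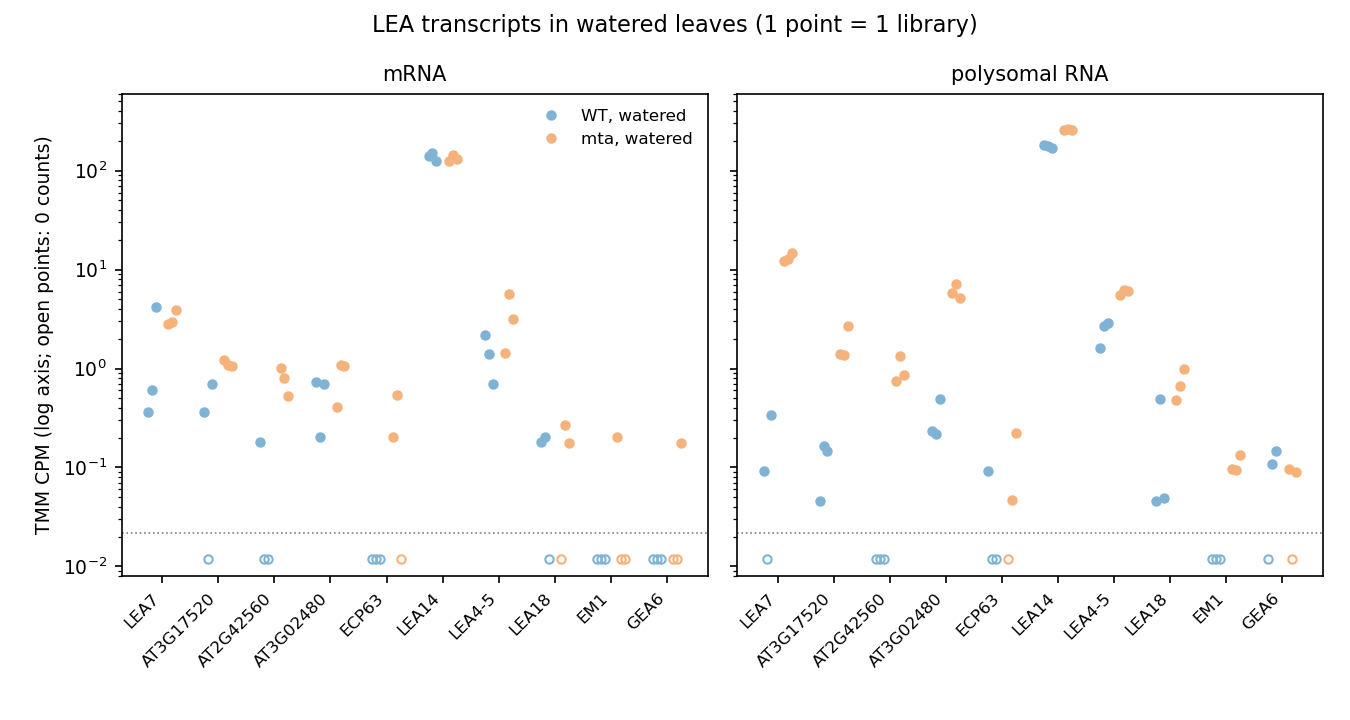
Level of each LEA gene in the watered libraries of WT and mta, as TMM-scaled CPM on a log axis, in mRNA and polysomal RNA. In polysomal RNA the 3 mta libraries of LEA7 (12.3 to 14.7) and AT3G02480 (5.13 to 7.14) lie above all WT libraries.

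The drought effect itself was then compared between the genotypes, as the difference of the log2 fold changes (mta minus WT). In mRNA the effect was smaller in mta for 5 of the 9 tested members, where 18.0% of all genes tested had a lower effect in mta. LEA7 differed by -2.56 ± 0.47 (adjusted p = 6.47e-05), and by -1.96 or -3.56 without watered WT replicate 1 or 3. The difference was -1.99 ± 0.43 for LEA4-5 and -0.54 ± 0.12 for LEA14. AT2G42560 with -5.35 ± 1.09 and AT3G17520 with -3.49 ± 0.69 rested on 1 and 3 counts in watered WT, and moved to between -7.26 and -4.74 and between -4.09 and -2.78 with watered WT libraries left out. For these members both the lower level in drought and, except for LEA4-5 and LEA14, the called higher level in watered mta enter the difference. In polysomal RNA 8 of 10 members had a smaller effect in mta (18.9% of all genes) and in uncapped RNA 8 of 10 (10.6% of all genes). AT3G02480, which missed the threshold between the genotypes in drought, was among them in polysomal RNA with -4.35 ± 0.24.

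Polysomal RNA was next examined in drought, since it holds the transcripts that are bound by several ribosomes. All 10 members rose in WT and all 10 rose in mta, where 36.3% and 37.8% of the genes tested rose. Droughted libraries lay above watered ones for all 10 in both genotypes, which held for 37.3% of the genes in WT and 40.4% in mta. EM1, ECP63 and GEA6 passed the filter through their droughted libraries, and most members were near 0 in watered WT. These counts are therefore a description and not evidence about the family. LEA7 reached 10089.6, 10253 and 10357 CPM in droughted WT, which made it the gene with rank 3 of the polysomal libraries, and 4119, 4128 and 4409.5 CPM in droughted mta. The 10 genes together held 2.03% of polysomal counts in droughted WT and 0.920% in droughted mta. In WT the log2 rise of LEA7 was 16.04 ± 0.37 (17.55 without watered WT replicate 3) and that of AT3G02480 was 12.68 ± 0.22 (13.47 with the length trend removed), while AT2G42560 was at least 19080-fold and EM1 at least 961-fold higher. The smallest rise was again that of LEA14, 4.02 ± 0.04 in WT and 2.50 ± 0.04 in mta.

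In droughted mta 7 of 10 members were lower than in droughted WT in polysomal RNA, where 27.6% of the genes tested were lower. AT2G42560 had 156, 156 and 178 CPM in mta against 972, 876 and 995 CPM in WT, a difference of -2.54 ± 0.06 (adjusted p = 1.77e-19). LEA4-5 had 751, 767 and 784 CPM against 2342, 2539 and 2499 CPM, a difference of -1.68 ± 0.06. AT3G17520 differed by -1.53 ± 0.07, LEA7 by -1.28 ± 0.07, EM1 by -1.25 ± 0.11, LEA14 by -0.96 ± 0.04 and LEA18 by -0.92 ± 0.09. The call of LEA18 was lost with DESeq2 (adjusted p = 0.106), and its value was -1.62 with the gene length trend removed. AT3G02480 stood at 1908, 1983 and 1925 CPM against 2024, 2058 and 2158 CPM, which did not overlap, and its difference of -0.10 ± 0.06 missed the threshold (adjusted p = 0.129). It passed under 6 of the 7 alternatives that kept all libraries, with values from -0.20 to -0.10 under 5 of them and -0.73 with the length trend removed. ECP63 and GEA6 also missed it (adjusted p = 0.403 and 0.379). In 9 of 10 members all droughted mta libraries lay below all droughted WT libraries, against 30.3% of the genes tested, the exception being GEA6. In the same polysomal libraries mesophyll markers summed to 5840 to 6318 CPM in WT and 8559 to 8961 CPM in mta, root markers to 62.6 to 69.3 and 120.2 to 132 CPM, and seed markers to 1.04 to 2.25 and 2.30 to 3.79 CPM. Of the 5 root markers only 2 reached 10 counts in either genotype, and PYK10 held 5834 counts in WT and 12248 in mta. The part of these marker differences in the LEA values was not tested. Per kilobase AT3G02480 with 2373 CPM and LEA7 with 2329.5 CPM shared the top of the order in droughted mta, with overlapping libraries, whereas LEA7 led clearly in WT.

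Polysome association, the log2 ratio of polysomal RNA to mRNA, was above the all-gene median for most members in drought. In droughted WT it was 0.89 for LEA7, 0.95 for AT3G02480, 1.09 for LEA4-5 and 1.17 for EM1, against a median of 0.10 over all genes. AT2G42560 stood apart with -0.17 in WT and -0.23 in mta. Drought raised the ratio for 2 members in WT, where it rose for 11.8% of the genes tested. These were LEA7 with 3.33 ± 0.64 (adjusted p = 0.00138) and LEA14 with 0.38 ± 0.09 (adjusted p = 0.00166). The LEA7 value was 2.36 and missed the threshold without watered WT mRNA replicate 3 (adjusted p = 0.0525). It was 3.95 without mRNA replicate 1, 2.64 without watered WT polysomal replicate 2 and 4.62 without polysomal replicate 3. LEA14 read 0.16 to 0.23 and lost its call in 19 of the 24 fits that left out 1 library (adjusted p up to 0.27). In those 19 fits the median of all genes lay between -0.13 and -0.09, against 0.05 to 0.07 in the other 5. Relative to that median LEA14 stood at 0.27 to 0.35 in both sets of fits. In mta the ratio fell with drought for 3 members (14.0% of all genes), with log2 changes of -1.77 ± 0.30 for LEA7, -2.01 ± 0.39 for AT3G02480 and -0.60 ± 0.08 for LEA14.

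The genotypes differed in polysome association in both conditions. In watered leaves LEA7 was 4.57 ± 0.69, AT3G02480 3.45 ± 0.68 and LEA14 0.57 ± 0.09 higher in mta (3 members, against 2.37% of all genes). AT3G02480 lost this call without watered WT mRNA replicate 1 (value 2.79, adjusted p = 0.275), and LEA7 was 3.60 without mRNA replicate 3 and 6.09 without polysomal replicate 3 of watered WT. In droughted leaves 3 members were lower in mta (8.03% of all genes), namely LEA4-5 with -0.70 ± 0.15 (adjusted p = 0.00182), LEA7 with -0.53 ± 0.17 (adjusted p = 0.0289) and LEA14 with -0.41 ± 0.08 (adjusted p = 0.000718). EM1 alone was higher by 0.79 ± 0.23 (adjusted p = 0.0153), where 8.72% of all genes were higher. LEA7 missed the threshold under another scaling (adjusted p = 0.0512), with the trend over gene length removed (0.152) and in 9 fits that left out 1 library (up to 0.0804), and EM1 missed it without droughted mta mRNA replicate 1 or 3 (0.0586 and 0.0588). The drought effect on the ratio was lower in mta than in WT for 3 members, against 2.80% of all genes. The difference was -5.10 ± 0.71 for LEA7, -3.46 ± 0.69 for AT3G02480 and -0.98 ± 0.12 for LEA14. For LEA7 and LEA14 the effects had opposite signs, a rise in WT and a fall in mta. The ratio of AT3G02480 fell in mta and had no call in WT. Of these AT3G02480 again lost its call without watered WT mRNA replicate 1 (value -2.79, adjusted p = 0.234), and LEA7 was -4.13 without mRNA replicate 3 and -6.61 without polysomal replicate 3 of watered WT. All these ratios of LEA7 and AT3G02480 that involve watered leaves rest on mRNA and polysomal levels of a few CPM or less.

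**Figure D4:**
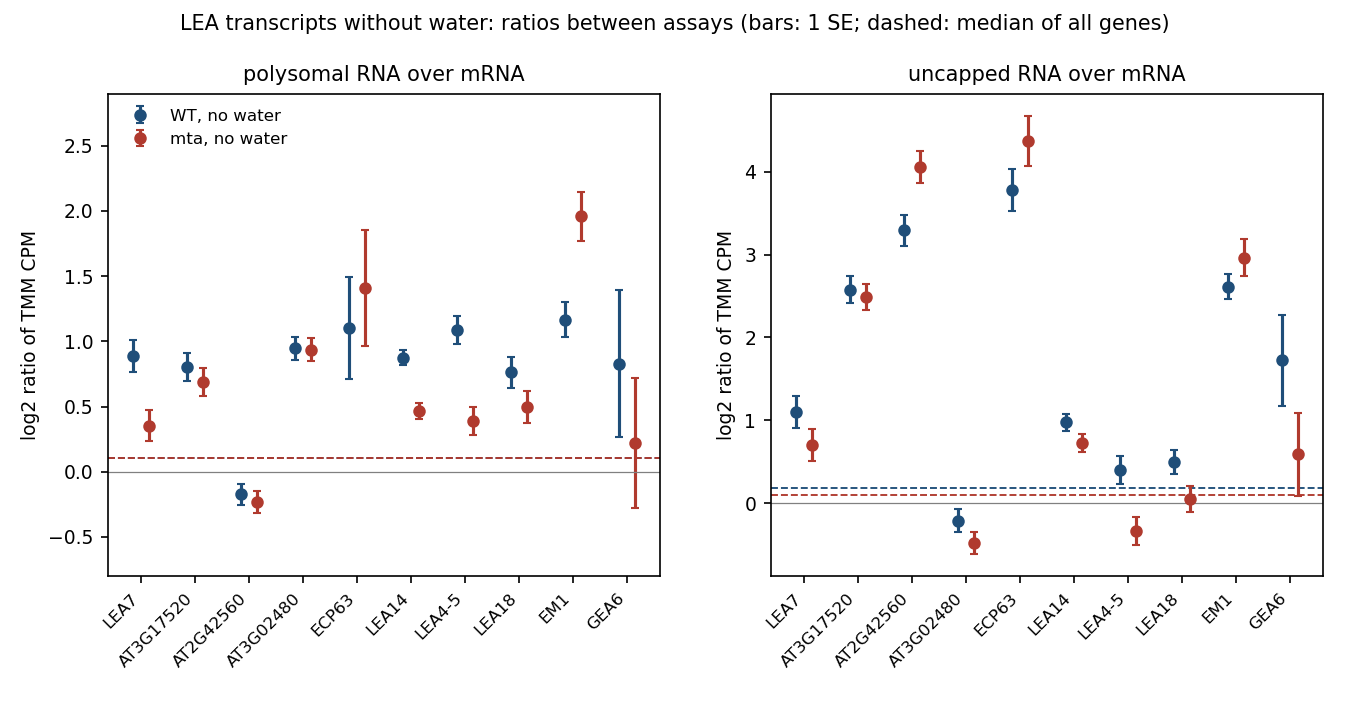
Log2 ratio of polysomal RNA to mRNA and of uncapped RNA to mRNA in droughted leaves of WT and mta, with the SE of the fit as bars and the median of all genes as a dashed line. AT2G42560 lies below the median in polysomal RNA (-0.17 in WT) and far above it in uncapped RNA (3.29 in WT).

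Uncapped RNA of the LEA genes was abundant in droughted leaves, and its order among the members differed from that of mRNA. Per kilobase AT3G17520 with 5866 CPM and LEA7 with 5829 CPM led in droughted WT, with overlapping libraries, and AT2G42560 came next with 4089 CPM. All 10 members rose in WT (27.8% of all genes) and all 10 in mta (25.6%). Again droughted and watered libraries did not overlap for any of the 10, with droughted ones higher in 30.4% of all genes in WT and 26.3% in mta. LEA18, AT3G02480, ECP63, EM1 and GEA6 passed the filter through their droughted libraries, so these counts are a description and not evidence about the family. The GMUCT counts ignore strand, and LEA7 overlaps the antisense gene AT1G52695 over 297 bases, so reads of the 2 genes cannot be told apart there. AT1G52695 had 0 CPM in the stranded mRNA counts of droughted WT and a mean of 0.0794 CPM in GMUCT. In droughted mta 7 members were lower, where 18.4% of all genes were lower. AT2G42560 had 2646, 2923 and 2816 CPM against 10300.5, 9065 and 8542 CPM in WT, a difference of -1.73 ± 0.21. LEA4-5 had 406, 375 and 436 CPM against 1073, 1536 and 1469 CPM, a difference of -1.74 ± 0.17. EM1 differed by -1.71 ± 0.15, AT3G17520 by -1.51 ± 0.17, LEA7 by -1.17 ± 0.20, LEA18 by -1.12 ± 0.18 and LEA14 by -0.82 ± 0.13. AT3G02480 stood at the threshold, with 663, 651 and 602 CPM against 744, 836 and 913 CPM and a difference of -0.38 ± 0.15 (adjusted p = 0.0501), and passed it with DESeq2 (adjusted p = 0.00565) and with the length trend removed (-0.66, adjusted p = 0.00112). ECP63, with 35.9, 46.1 and 41.3 CPM in mta and 54.1, 37.5 and 38.6 CPM in WT, and GEA6 overlapped between the genotypes. In the other 8 members all droughted mta libraries lay below the WT ones, against 22.9% of the genes tested.

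The uncapped share, the log2 ratio of uncapped RNA to mRNA, spanned a wide range among the members. In droughted WT it was 3.78 ± 0.25 for ECP63, 3.29 ± 0.19 for AT2G42560, 2.61 ± 0.15 for EM1 and 2.58 ± 0.16 for AT3G17520, against an all-gene median of 0.18. It was 1.10 for LEA7, 0.97 for LEA14, 0.50 for LEA18 and 0.40 for LEA4-5, and -0.21 ± 0.13 for AT3G02480. Members of 1 family thus lay at both ends. With edgeR 0 members changed their share with drought in WT (4.58% of all genes did), 3 had an unadjusted p under 0.05, and DESeq2 called 0. In mta the share of 5 members fell (8.64% of all genes), with log2 changes of -2.58 ± 1.16 for LEA18, -1.70 ± 0.39 for LEA7, -1.40 ± 0.51 for AT3G02480, -1.28 ± 0.39 for LEA4-5 and -1.23 ± 0.46 for AT3G17520. With the trend over gene length removed only LEA7 kept its call, and the other 4 also lost theirs when single libraries were left out (adjusted p up to 0.177).

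Between the genotypes no member differed in uncapped share in watered leaves (0.350% of all genes did), and none differed in its drought effect (7.17% of all genes did); in both cases edgeR gave 0 members with an unadjusted p under 0.05 and DESeq2 called 0. In droughted leaves AT2G42560 had a higher share in mta by 0.76 ± 0.26 (adjusted p = 0.0461; 7.18% of all genes were higher). LEA4-5 had a lower share by -0.73 ± 0.24 (adjusted p = 0.0352; 9.28% were lower). With the length trend removed LEA4-5 read -0.25 (adjusted p = 0.566), and it also missed the threshold under the other scaling (0.0503) and the replicate block (0.0529), while EM1 passed with the length trend removed (0.82, adjusted p = 0.0434). DESeq2 called neither AT2G42560 nor LEA4-5 (adjusted p of 0.14 and 0.158), and both were lost in some fits that left out 1 library (up to 0.115 and 0.111). Both ratios are taken over the same mRNA libraries, whose deviations therefore move both.

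The m6A libraries were deposited as peak lists with a fold enrichment per peak that is the authors' own value. In droughted leaves 3 LEA transcripts carried a peak on their strand in all 3 libraries of both genotypes, namely AT2G42560, LEA18 and EM1. The share with a peak in at least 2 of 3 libraries was 3 of 10 members, against 58.5% of the genes tested in droughted WT and 44.0% in droughted mta. Among genes of at least 100 CPM it was 73.8% and 50.3%. EM1 (24.8 CPM in droughted WT), ECP63 and GEA6 lay below that level in both genotypes, and LEA18 did in mta (83.3 CPM). These 2 shares are therefore not a like comparison for all 10 members. LEA7, LEA14 and LEA4-5, which were among the 6 members of highest level in droughted WT, had no peak in any droughted library, and AT3G17520 and AT3G02480, also among these 6, had one in 1 droughted library each. In watered leaves 0 of 10 members had a peak in at least 2 of 3 libraries, against 55.7% of the genes tested in WT and 48.9% in mta, and 9 of the members were near the limit of detection there.

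The peaks of these 3 transcripts lay at similar places in the libraries. EM1 (chromosome 3, 19214722 to 19215831, plus strand, TAIR10) had 1 peak per library with its summit between 52.1% and 59.0% of the gene length, and a fold of 4.16 to 9.30 in WT and 8.58 to 14.3 in mta. LEA18 (chromosome 2, 14862779 to 14863412, minus strand) had 1 peak per library with its summit between 20.0% and 23.5%, and folds of 1.94 to 2.89 and 1.99 to 2.67. AT2G42560 (chromosome 2, 17714638 to 17716912, minus strand) had 2 to 4 peaks per library. A peak lay toward the 3′ end in each of the 6 libraries, with summits between 76.2% and 82.5% of the gene length. A peak with its summit between 60.4% and 66.3% was in all 3 droughted mta lists and in none of the 3 WT lists. Folds of AT2G42560 ran from 1.79 to 2.32 in WT and from 2.12 to 5.02 in mta, and folds of separately called lists are not compared. All 3 transcripts were lower in droughted mta in mRNA, as given above, and peaks can be called only on transcripts that are present.

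The other 4 members with a peak had it in 1 library only. It was on LEA7 in watered mta replicate 3 with a fold of 4.54, on LEA14 in watered WT replicate 1 with 3.64, on AT3G17520 in droughted mta replicate 3 with 2.27 and on AT3G02480 in droughted WT replicate 3 with 2.05. LEA4-5, ECP63 and GEA6 had none in any of the 12 lists.

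**Figure D5:**
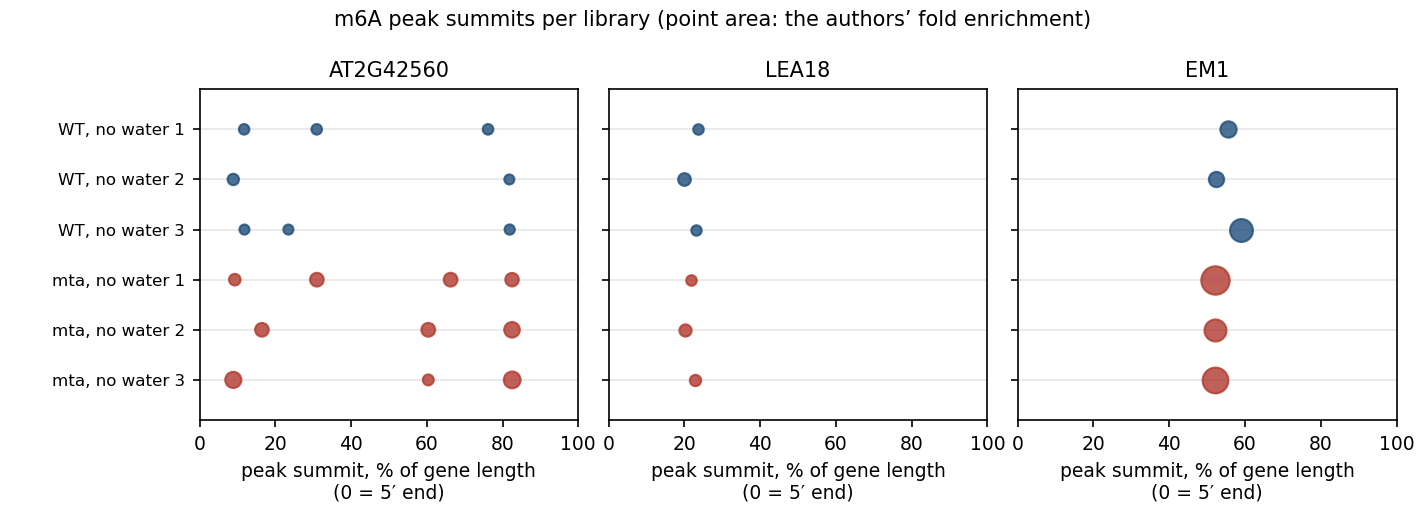
Position of the m6A peak summits on AT2G42560, LEA18 and EM1 in each of the 6 droughted libraries, in percent of the gene length from the 5′ end, with the point area showing the authors' fold enrichment. EM1 summits lie between 52.1% and 59.0%, LEA18 summits between 20.0% and 23.5%, and those of AT2G42560 along the gene.

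Other LEA genes were also counted in mRNA. Of 30 such genes 20 were tested, of which 16 rose and 2 fell with drought in WT (32.6% and 35.3% of all genes) and 17 rose and 2 fell in mta (35.1% and 35.3%). AT3G15670 and AT5G44310 were at 0 in watered WT and at least 577-fold and at least 363-fold higher in drought. In droughted mta 12 of the 20 were lower than in WT and 4 were higher (26.1% and 26.6% of all genes), with a median of -0.67 against 0.01 over all genes. AT3G15670 differed by -3.01 ± 0.13 and AT3G22490 by -2.61 ± 0.38, whereas AT2G46140 was higher by 2.86 ± 0.34. In watered mta 3 were higher and 1 was lower (8.50% and 9.28% of all genes), the largest difference being that of the chloroplast cold-response protein COR15A with 1.26 ± 0.14, followed by DI21 with 1.13 ± 0.15 and COR15B with 0.64 ± 0.14. The drought effect was called higher in mta than in WT for 4 of them and lower for 6, where 19.6% and 18.0% of all genes were, so the share called higher was that of all genes. Genes with 0 counts in watered WT, such as AT3G15670, AT5G44310 and AT3G22490, passed the filter on low counts through their droughted libraries. ATECP31, at 3.70 CPM in droughted WT and 0.846 CPM in droughted mta, passed it through droughted WT. The counts of genes in this list are therefore a description and not evidence about the family.

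Among 19 transcription factors and their binding partners that act in ABA and seed responses, 13 were tested in mRNA. Of these 9 rose and none fell with drought in WT (32.6% and 35.3% of all genes), and 10 rose and 2 fell in mta (35.1% and 35.3%). AFP1, which binds ABI5 and restrains ABA responses, rose by 4.33 ± 0.18 in WT and 4.25 ± 0.17 in mta, and its relative AFP3 by 3.48 ± 0.13 and 3.35 ± 0.12. ABI5, a bZIP factor that activates Em genes in seeds, rose by 2.73 ± 0.27 in WT. In droughted mta 7 of the 13 were lower and 1 was higher (26.1% and 26.6% of all genes), among them ABI5 with -0.78 ± 0.18, AFP2 with -0.91 ± 0.22 and TMAC2 with 0.79 ± 0.31. None of the 13 differed between watered mta and watered WT in mRNA, where 17.8% of all genes did. The seed regulators ABI3, LEC1, LEC2, ABI4 and DPBF2 had 0 mRNA counts in all 12 libraries.

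Across the 12 mRNA libraries the profiles most like the mean of the 9 tested members were those of the dehydrin RAB18 (Pearson r of 0.999), the aldehyde dehydrogenase ALDH7B4 (0.998), AT1G07985 (0.998), the dehydrin LTI30 (0.998) and GASA3 (0.998). These values are a description over libraries that fall into droughted and watered ones. RAB18 stood at a mean of 26.0 CPM in watered WT, 26859 in droughted WT, 41.1 in watered mta and 12938 in droughted mta.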

How the data were processed

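Per the labels' protocols, rosette leaf RNA was taken for fragmented poly(A) input (mRNA), m6A immunoprecipitation, pooled polysomal sucrose fractions and GMUCT. For 36 libraries the authors deposited raw counts per gene, made with featureCounts 2.0.1 (mRNA and GMUCT) or 2.0.3 (polysomal) over whole TAIR10 gene spans, stranded except for GMUCT, per the file headers. Low polysomal counts were 95.7% to 96.8% even, which double counting of read pairs would give, and limits for them used counts divided by 2. For the 12 m6A libraries the authors deposited peak lists per strand with a fold enrichment (a ratio) and −log10 p and q values. The submitters' processing notes name FastQC, Trim Galore, cutadapt, STAR, MACS2, bedtools and SAMtools. The background library of the peak calls is not given in the sources used here, and the depth of the m6A libraries is unknown.

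Counts were fitted in R 4.3.3 with edgeR 4.0.16 (filterByExpr with a minimum count of 10 and total of 15, TMM scaling, 1 mean per group, quasi-likelihood F test) over all genes of an assay, and over the mRNA libraries jointly with the polysomal or GMUCT ones for ratios. P-values were adjusted by Benjamini-Hochberg across every gene tested, with a threshold of 0.05, for 5 contrasts in each of 5 measures. Log2 fold changes have Wald SE from the fit, and the steps were tested on simulated data. Against groups with 0 counts, 3 counts over the group (relative to its scaled total) gave a lower bound of the fold, and groups with 1 to 3 counts a ratio with a 95% exact interval. A peak counted for a gene when it overlapped it on its strand by at least 1 base. Alternatives were another scaling (DESeq2 size factors), no filter, DESeq2 1.42.0, a replicate block, nuclear genes only, removal of the gene length trend, halved polysomal counts, and leaving out each library.

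The members and the gene lists were chosen with earlier results of these data known. Named genes are all 10 members, up to 3 genes of each list with the largest change past the threshold in a contrast, and the 5 genes with the highest correlation to the members' mean profile. Separate tables of noncoding RNA counts were not used here. Symbols come from the RefSeq gene table of TAIR10.1, which matched all 10 members. Sequences of the members are not shown here.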

Additional observations from a re-analysis of the deposited data

Results flagged for a closer look

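For 24 values the drought effect in mta differed from that in WT by a test of the difference itself (edgeR, adjusted p under 0.05). In each the effect was lower in mta. In mRNA, polysomal RNA and uncapped RNA this was a smaller rise, whereas in polysome association the ratio fell in mta. The values are log2 fold changes in mta minus those in WT, and in every assay the 2 effects rest on different libraries. In mRNA the difference was -2.56 for LEA7, -3.49 for AT3G17520, -5.35 for AT2G42560, -0.54 for LEA14 and -1.99 for LEA4-5.

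In polysomal RNA it was -7.73 for LEA7, -5.48 for AT3G17520, -1.51 for LEA14, -3.00 for LEA4-5, -2.88 for LEA18 and -4.35 for AT3G02480. The values of -10.82 for AT2G42560 and -6.41 for EM1 were fitted against 0 counts in watered WT and depend on the prior count of the fit. With watered WT replicate 3 left out LEA7 read -9.24, and with replicate 2 left out LEA18 read -4.75.

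In uncapped RNA the difference was -2.79 for LEA7, -2.73 for AT3G17520, -3.33 for AT2G42560, -0.79 for LEA14, -2.76 for LEA4-5, -3.58 for LEA18, -1.45 for ECP63 and -1.45 for AT3G02480. LEA18 read -4.25 without watered WT replicate 1 and -2.95 without replicate 2. In 3 fits each that left out 1 library ECP63 and AT3G02480 missed the threshold, with adjusted p of up to 0.065 and 0.107. In polysome association the difference was -5.10 for LEA7, -0.98 for LEA14 and -3.46 for AT3G02480, and AT3G02480 missed the threshold without watered WT mRNA replicate 1 (adjusted p = 0.234).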

How the results depend on the processing

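Of 143 member values recomputed under 2897 settings, none changed sign, 113 settings took a call below the threshold and 22 raised one above it. Of the 106 member values that missed the threshold, 44 changed sign in at least 1 setting (125 of 2877 setting values), and 63 setting values passed it. The counts of members past the threshold that moved by over 1.5 times were these. In mRNA of watered leaves DESeq2 called 1 member, and leaving out single libraries gave 1 to 3. In polysome association leaving out single libraries gave 1 to 2 members for drought in WT, 3 to 6 for drought in mta and 2 to 4 between the genotypes in drought. Its counts of 2 to 3 in watered leaves and 2 to 4 for the difference of the drought effects moved by no more than 1.5 times. In uncapped share 3 members passed for drought in WT with no filter on low counts (0 to 2 with single libraries left out). For drought in mta 1 passed with the length trend removed (1 to 5 with single libraries left out). Between the genotypes in drought the 2 members passing with the length trend removed included EM1 in place of LEA4-5, 1 passed with the other scaling, 0 with DESeq2 and 1 with the replicate block (0 to 2 with single libraries left out). Without single libraries the mRNA counts were 9 to 10 for drought in either genotype, 7 to 8 between the genotypes in drought and 5 to 6 for the difference. Polysomal counts were 10 for drought in either genotype, 8 to 9 in watered leaves, 7 to 8 in drought and 8 to 9 for the difference. Uncapped counts were 10, 10, 4 to 6, 7 to 8 and 6 to 8. The cause of these moves was not tested, except that the loss of LEA14 in polysome association for drought in WT came with a shift of the all-gene median, given beside its value.

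Within mRNA, libraries with the same replicate number had correlations of deviations between -0.185 and 0.266. Between mRNA and polysomal libraries of a group the mean was 0.041 for the same number and -0.021 for different numbers. Between mRNA and GMUCT it was 0.063 and -0.030. The same-number means were thus slightly higher, with ranges that overlapped, and the numbers were not taken as pairs. The replicate block gave 4 members in uncapped share for drought in mta and the same number as without it in every other comparison not named above. Depth limits the watered mRNA values, since 9 of 10 members held at most 20 counts over the 3 watered WT libraries, and the depth of the m6A lists is unknown.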

Other observations

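ABI3, the seed regulator whose promoter drives MTA in the mta line, had 0 mRNA counts in all 12 libraries but was found in uncapped RNA, a gene singled out after its values were seen. In GMUCT it stood at 5.16 ± 0.598 CPM in watered mta on 107 counts and at 6.50 ± 0.781 CPM in droughted mta on 54 counts (SD, n = 3), against 2 counts each in watered and in droughted WT. Since ABI3 passed the filter on low counts only through its mta libraries, these values are a description and no test is given. Reads of the ABI3 gene and of the construct with its promoter were not told apart. GMUCT counts carry no strand.

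Of the 14 seed storage and oil body genes none was tested in droughted mRNA, since all were below the filter, and the highest in droughted WT, the oleosin OLEO2, had 8 counts over 3 libraries. In polysomal RNA 6 were tested, of which 2 rose and 2 fell with drought in each genotype. Of all genes tested 36.3% rose and 40.1% fell in WT, and 37.8% rose and 32.8% fell in mta. The highest counts over 3 libraries were 100 for OLEO2 in droughted WT and 178 for the seed storage albumin SESA1 in droughted mta.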
